A study of Homo sapiens with 8 samples.

Results

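Receptor tyrosine kinases pass growth factor signals to RAS and on to the MAP kinases, and 37 genes of this route in lung carcinoma were examined for binding of IGF2BP1 to their RNA. Members were a fixed list of GENCODE release 44 genes (20046 protein-coding genes in all), and the peaks examined were those that overlap a member on its own strand by at least 1 nt. With DMSO they held 142 of 22311 peaks and with AVJ16 154 of 22123. Binding was measured by eCLIP, in which RNA crosslinked by UV light to a protein is immunoprecipitated (IP) with that protein and sequenced beside a size-matched input (SMInput) prepared in parallel without the antibody. H1299, an established cell line from human non-small cell lung carcinoma of wild-type genotype per the labels, was treated for 24 h with 0.01% DMSO or with 1.5 µM AVJ16, a small-molecule inhibitor of IGF2BP1, before irradiation at 254 nm with 400 mJ/cm2. Each treatment had 2 IP and 2 SMInput libraries, 8 libraries in all, and the deposited data are 1 peak list per treatment in which both replicates are combined. For each peak a list gives a log2 fold enrichment of IP over SMInput and a −log10 p. The lists hold no value per replicate, so no error between replicates and no test of the difference between treatments can be given, and the depth is unknown. Every listed peak was at least 8-fold enriched (3.00 on the log2 scale), with a −log10 p of at least 3.00. A gene without a peak is therefore one in which no site passed these thresholds, whatever its binding. The amount of each RNA in the cells was not measured here, and a difference between genes or treatments in the number of listed peaks cannot be told apart from one in RNA level or in depth.

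When a growth factor binds its receptor kinase, the receptor phosphorylates itself and recruits adaptor proteins, which bring an exchange factor to the membrane to load RAS with GTP. Active RAS recruits RAF kinases, which phosphorylate MEK, and MEK phosphorylates ERK. GTPase-activating proteins, Sprouty and SPRED proteins and dual-specificity phosphatases turn the signal down, and RSK kinases carry it further. Several of these receptors and kinases are drug targets in lung carcinoma. IGF2BP1 is an RNA-binding protein with KH domains that is known for binding the 3’UTR of many mRNAs and for protecting bound mRNAs from decay.

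The sequences at the strongest sites are shown first, because the comparisons below return to them. For the 8 members with the highest DMSO enrichment, the central 30 nt of the most enriched DMSO peak are given (the whole peak where it is shorter), and for the 3 members with the highest AVJ16 enrichment those of the most enriched AVJ16 peak. They are written as RNA, 5′ to 3′, from the hg38 genome, and capitals mark CAUA, CAUC or CAUU, the CAU-based letters known for IGF2BP proteins.
RRAS2, DMSO, 3’UTR, chr11:14278215-14278244, minus strand: ucaagaaaccuucccaauagaguacaacag
NRAS, DMSO, 3’UTR, chr1:114707412-114707441, minus strand: agaagugguuuguagacuuccuuuauaaua
FGFR2, DMSO, 3’UTR, chr10:121478501-121478530, minus strand: auuguguuuugcuuuggaaacacccacuca
NF1, DMSO, CDS, chr17:31374012-31374029, plus strand: ggaaucgacaaggagaac
AXL, DMSO, 3’UTR, chr19:41261407-41261436, plus strand: uauaguucuaggcacuguaguucuaagacu
SPRED2, DMSO, 3’UTR, chr2:65312844-65312873, minus strand: uucuaucuuuagccCAUCAUCAUUuucugc
EGFR, DMSO, 3’UTR, chr7:55208329-55208358, plus strand: aagcuuggacucCAUCccugaaggucuucc
MET, DMSO, CDS, chr7:116699700-116699729, plus strand: uucccagauCAUCCAUUgCAUUcgauauca
NRAS, AVJ16, 3’UTR, chr1:114707285-114707314, minus strand: uugagagcagaugcCAUUuuguacauguau
MET, AVJ16, 3’UTR, chr7:116796198-116796227, plus strand: aucgauauucuuugcucuugccaaaauugc
EGFR, AVJ16, 3’UTR, chr7:55206437-55206464, plus strand: caaauaauaacucggauuccagcccaca
Of these 11 stretches, 4 held a CAU-based match, with 3 matches each in SPRED2 and in the coding site of MET.

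IGF2BP1 peaks were listed in most of the 37 genes and at each step from receptors to RSK kinases, with many in a few mRNAs. With DMSO, 26 of the 37 genes (70.3%) held at least 1 peak, whereas 25.8% of all protein-coding genes did. With AVJ16, 24 genes (64.9%) held a peak, beside 23.2% of all protein-coding genes. The share over all genes includes genes that H1299 cells may not express, and whether the members stand apart from expressed genes was not tested. The members were also chosen with earlier results of these data known, so their higher share cannot be read as a property of the pathway. Both lists held a peak in 22 members. DDR1, SPRED1, ARAF and RPS6KA1 had a peak with DMSO and none with AVJ16, which is 15.4% of the members bound with DMSO beside 20.9% of all genes bound with DMSO. EPHA2 and BRAF had a peak with AVJ16 and none with DMSO, 8.33% of the members bound with AVJ16 beside 12.1% of all genes bound with AVJ16. The remaining 9 members, ERBB2, EPHB4, SOS2, SPRY4, HRAS, MAP2K2, KSR1, DUSP4 and DUSP6, had no peak in either list. No peak lay on the strand opposite to a member.

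**Figure D1:**
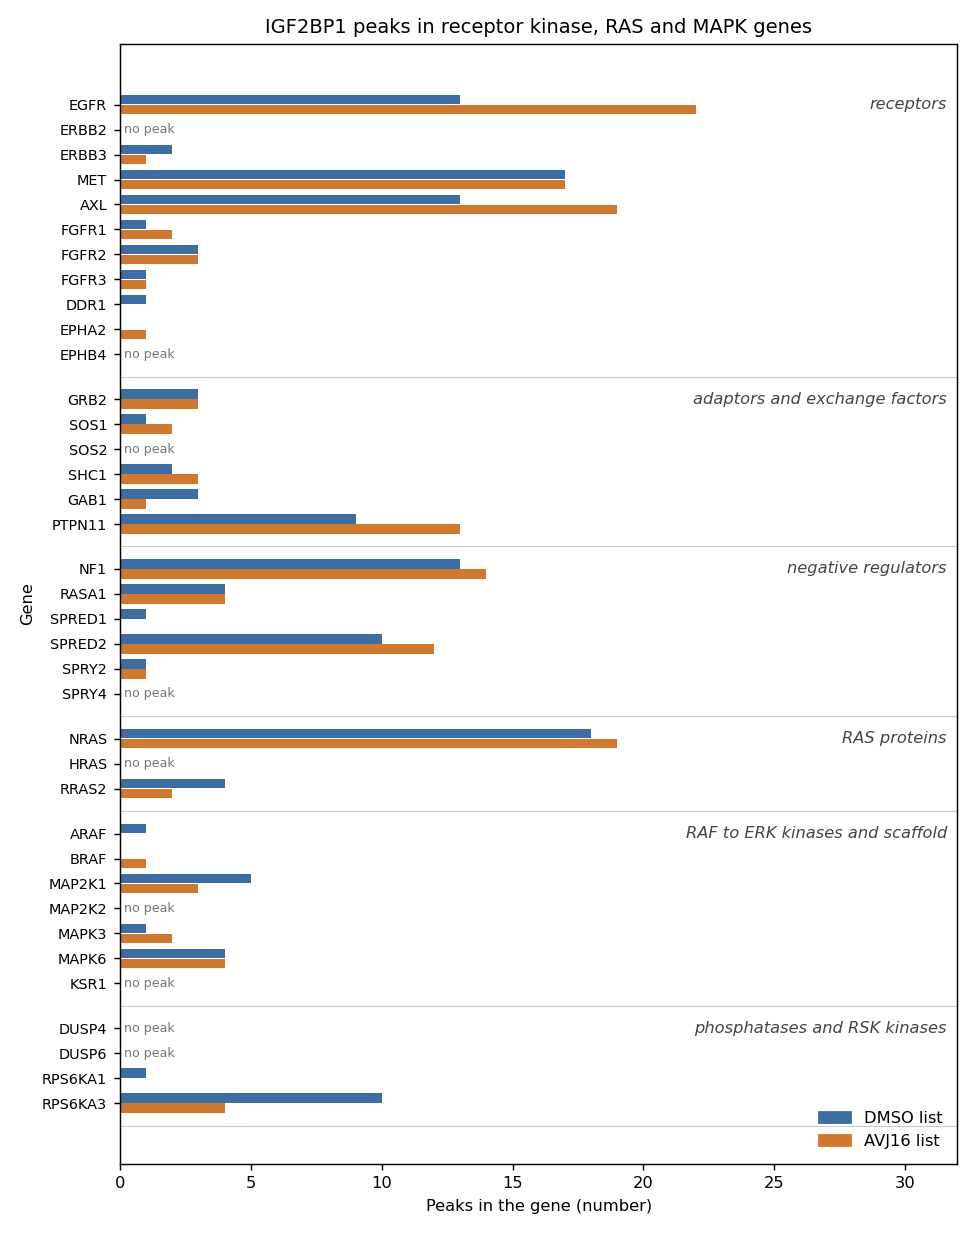
Number of IGF2BP1 peaks (x axis) in each of the 37 genes (y axis), grouped by pathway step, in the DMSO list (blue) and the AVJ16 list (orange). The longest bars are those of EGFR with 22 AVJ16 peaks, AXL and NRAS with 19 AVJ16 peaks each, and MET with 17 in both lists, and 9 genes have no peak.

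The peaks were unevenly spread. EGFR, MET, AXL, PTPN11, NF1, SPRED2, NRAS, MAP2K1 and RPS6KA3 had 5 or more peaks in a list, and these 9 genes held 108 DMSO peaks (76.1% of those in members) and 123 AVJ16 peaks (79.9%). Many peaks touch a neighbour, so a count of peaks is not a count of separate sites. The AVJ16 list held more peaks than the DMSO list in 12 members, fewer in 9 and as many in 7. The canonical 3’UTR was longer in the genes with peaks: its median length was 3520 nt in the 9 genes with 5 or more peaks, 2058 nt in the 28 genes with a peak in either list, and 1214 nt in the 9 without. HRAS and MAP2K2, neither of which had a peak, have the shortest 3’UTRs of the group, with 286 nt and 277 nt. Long 3’UTRs without a peak also occurred, in DUSP4 with 3962 nt and SPRY4 with 3779 nt.

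Most member peaks lay in the 3’UTR. With DMSO it held 116 of 142 member peaks (81.7%, 95% Wilson interval 74.5% to 87.2%) and with AVJ16 124 of 154 (80.5%, interval 73.6% to 86%), beside 75.8% and 76.2% of all peaks in protein-coding genes. These and the following intervals cover counting error only, and peaks of 1 gene are not independent of each other. The CDS held 25 DMSO peaks (17.6%) and 29 AVJ16 peaks (18.8%), of which NF1 and MET held 19 and 20. No DMSO peak and 1 AVJ16 peak of a member lay in an intron. Within the 3’UTR, the centre of the median DMSO peak lay at 39.8% of the way from the stop codon to the end, and that of the median AVJ16 peak at 43.5%, beside 42.2% and 42.0% for peaks of other genes. Member peaks had a median enrichment of 3.71 (DMSO) and 3.65 (AVJ16) on the log2 scale, and all peaks one of 3.63 and 3.61.

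Among the receptors, 8 of 11 genes were bound in each list, with 51 DMSO and 66 AVJ16 peaks. EGFR, the receptor of epidermal growth factor, had 13 peaks with DMSO, all in its 3’UTR of 6011 nt, and 22 with AVJ16, namely 20 in the 3’UTR plus a coding one and one in a distal intron. DMSO peaks were centred from 698 to 5770 nt after the stop codon and AVJ16 peaks of the 3’UTR from 168 to 5786 nt, and they covered 866 nt and 1249 nt, with 597 nt in common. Between 600 and 1000 nt after the stop codon, DMSO peaks of 3.72, 4.46 and 3.48 on the log2 scale lay side by side, where the AVJ16 list had peaks of 3.57, 3.97, 5.04, 5.28, 4.15 and 3.37. The 169 nt of the middle DMSO peak were thus split into shorter peaks in the AVJ16 list, and the 28-nt peak among them is the most enriched EGFR site printed above. The most enriched DMSO site of EGFR, 2726 nt after the stop codon, had a log2 fold enrichment of 4.63 with DMSO and 3.55 at the overlapping AVJ16 peak. The strongest EGFR peak thus lay at a different place in each list. A site picked as the strongest of a list is favoured by that choice to be lower in the other list. The direction at such sites, here and in the genes below, therefore cannot by itself be read as a change with AVJ16. The 3’UTR sites at 1518 and 1580 nt were higher in the AVJ16 list, at 3.92 against 3.12 and 4.04 against 3.24.

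MET, the hepatocyte growth factor receptor, had 17 peaks in each list, and in both of them 8 lay in the CDS and 9 in the 3’UTR. Overlap with the other list was found for 13 of its DMSO and 14 of its AVJ16 peaks. The most enriched DMSO peak was coding, 3543 nt before the stop codon, with a log2 fold enrichment of 4.61 beside 4.19 with AVJ16, and it holds the CAU-rich sequence printed above. A neighbouring coding peak, 3315 nt before the stop codon, was at 4.54 with DMSO and 3.12 with AVJ16, where the peak was 96 nt long instead of 53 nt. The opposite held just downstream of the stop codon. There the peak at 99 nt was at 4.58 with DMSO and 5.63 with AVJ16, a 2.07-fold difference in enrichment and the highest value of MET. Its 4 DMSO peaks without an overlapping partner were at 3.22 to 4.56, the strongest 1809 nt after the stop codon, and its 3 such AVJ16 peaks at 3.18 to 4.82, the strongest in the CDS 463 nt before the stop codon.

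AXL, the receptor of GAS6, differed least between the lists among the receptors with many peaks. All 13 DMSO peaks and all 19 AVJ16 peaks lay in its 3’UTR of 1862 nt, and 12 and 14 of them lay between 1323 and 1786 nt after the stop codon. With touching peaks joined, all AXL peaks formed 6 separate sites in each list and covered 399 nt with DMSO and 556 nt with AVJ16, with 384 nt in common. All 13 DMSO peaks had an overlapping AVJ16 peak, and the differences ran from -0.49 to 0.32, none beyond 0.5. When pairing started from the AVJ16 peaks, 1 of 15 was higher by more than 0.5, at 4.35 against 3.70 with DMSO. The strongest peak, centred 1517 nt after the stop codon, was at 4.81 with DMSO and 4.85 with AVJ16. The −log10 p of AXL peaks was the highest among members, with 4 DMSO and 14 AVJ16 peaks at the upper limit of 400. AVJ16 peaks without a DMSO partner, at 3.55 to 3.88, lay at 220 and 239 nt, next to a shared peak, and at 777 and 791 nt.

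The fibroblast growth factor receptors had 1 to 3 peaks each. FGFR2 had a 3’UTR peak 1342 nt after the stop codon with nearly the same enrichment in both lists, 4.98 with DMSO and 4.97 with AVJ16, and a coding peak next to the stop codon of 4.25 with DMSO and 3.59 with AVJ16. FGFR3 had 1 peak per list at the same place near the end of its 3’UTR, at 3.71 with DMSO and 3.99 with AVJ16. FGFR1 had 1 DMSO peak of 3.80, over which the AVJ16 list had peaks of 3.36 and 3.57. ERBB3, a partner of EGFR with little kinase activity of its own, had a shared 3’UTR peak of 3.90 with DMSO and 4.48 with AVJ16, with a −log10 p of 3.30 and 4.05. ENSG00000257411 overlaps ERBB3 on the same strand, so its peaks cannot be given to 1 gene. DDR1, a collagen receptor, had a single DMSO peak of 3.07, and EPHA2, an ephrin receptor, a single AVJ16 peak of 3.10, both close to the threshold of 3.00. ERBB2 and EPHB4 had none.

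**Figure D2:**
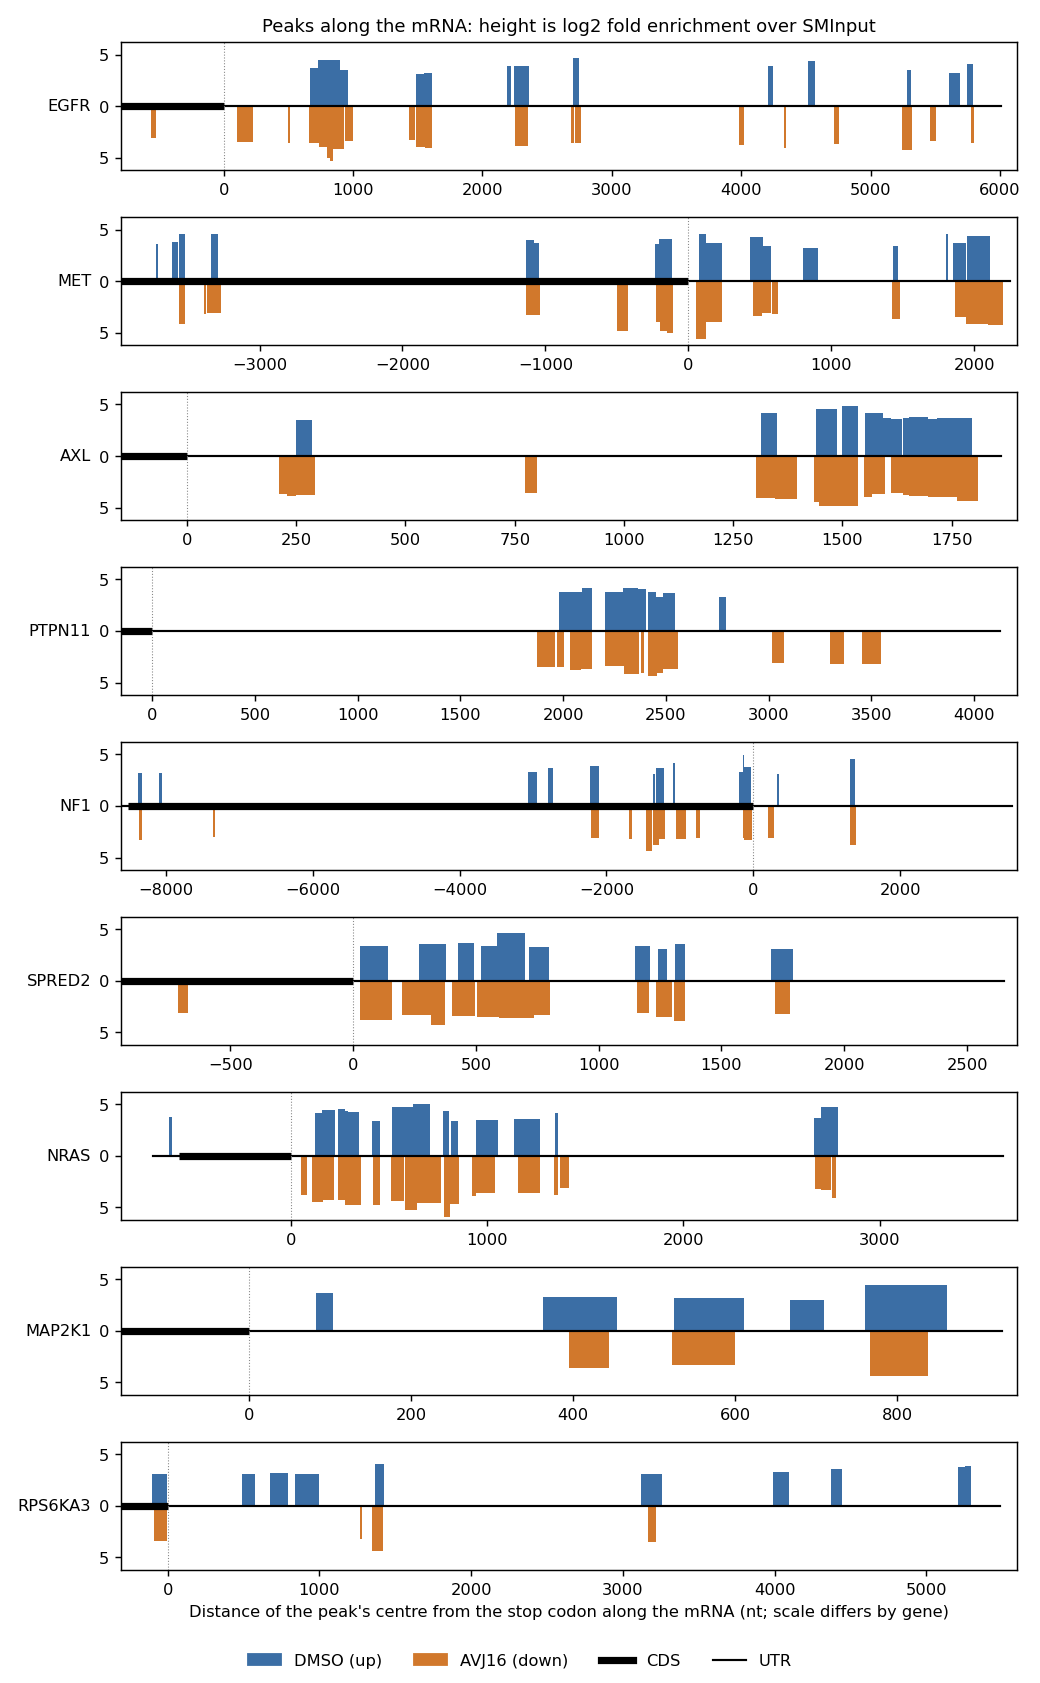
Peaks along the mRNA of the 9 genes with 5 or more peaks: each box is 1 peak, placed by the distance of its centre from the stop codon of the canonical transcript (x axis, nt, scale differs by gene) and as high as its log2 fold enrichment (y axis), with DMSO upward in blue and AVJ16 downward in orange. The intron peak of EGFR is not drawn. Most peaks of AXL and NRAS stand opposite a peak of the other list, and RPS6KA3 has 10 DMSO and 4 AVJ16 peaks.

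Of the 6 adaptors and exchange factors, 5 were bound in each list, with 18 DMSO and 22 AVJ16 peaks. PTPN11, the phosphatase SHP2 that acts between receptors and RAS, held 9 and 13 of them, all in the 3’UTR. In its 3’UTR of 4126 nt the first peak was centred 2036 nt after the stop codon with DMSO and 1917 nt with AVJ16, and 8 DMSO and 10 AVJ16 peaks lay between 1917 and 2522 nt. Within this stretch, neighbours differed in direction between the lists. The peak at 2116 nt was at 4.20 with DMSO and 3.67 with AVJ16, whereas those at 2432 and 2470 nt were at 3.81 and 3.31 with DMSO and at 4.40 and 4.08 with AVJ16. Farther along, the AVJ16 list had 3 peaks of 3.09 to 3.17 between 3045 and 3501 nt that had no DMSO partner.

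GRB2, the adaptor that links receptors to SOS, had 3 peaks in each list, of which 1 was shared, at 3.79 with DMSO and 3.10 with AVJ16. These overlapping peaks, of 60 and 69 nt, had only 9 nt in common, so the values belong to largely different stretches. The other DMSO peaks of GRB2 lay 132 and 400 nt after the stop codon and its other AVJ16 peaks at 1990 and 2063 nt. SOS1, the exchange factor, had 1 DMSO peak of 3.11 and AVJ16 peaks of 3.33 and 3.47 at other positions of its 3’UTR, with none shared. GAB1, a docking protein of receptors, had 3 DMSO peaks of 3.09 to 3.96, 2 of them coding, and 1 AVJ16 peak of 3.51 elsewhere. SHC1, another adaptor, had 2 DMSO and 3 AVJ16 peaks, all of which also lie on PYGO2, a gene of the same strand. SOS2, the close relative of SOS1, had no peak.

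Negative regulators were bound in 5 of 6 genes with DMSO and 4 of 6 with AVJ16, with 29 and 31 peaks. NF1, which encodes the RAS GTPase-activating protein neurofibromin, was the member with the most coding peaks, 11 of 13 with DMSO and 12 of 14 with AVJ16, spread from 8355 to 73 nt before the stop codon. Of its 13 DMSO peaks 7 were shared, and 5 of these were lower in the AVJ16 list, with a median difference of -0.47. The most enriched of them, an 18-nt peak printed above that lies 135 nt before the stop codon, was at 4.89 with DMSO and 3.10 with AVJ16, a 3.45-fold difference in enrichment. Going the other way, a coding peak 1350 nt before the stop codon was at 3.08 with DMSO and 3.76 with AVJ16, and next to it the AVJ16 list had its strongest NF1 peak, of 4.33, which had no DMSO partner. The shared 3’UTR peak of NF1, 1349 nt after the stop codon, was at 4.53 with DMSO and 3.83 with AVJ16.

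SPRED2, a membrane protein that represses RAS to MAPK signalling together with NF1, had 10 DMSO peaks, all in the 3’UTR, and 12 AVJ16 peaks, of which 1 was coding and the others lay in the 3’UTR. All 10 DMSO peaks overlapped an AVJ16 peak. Its strongest DMSO site, with the run of CAU-based matches printed above, was at 4.64 with DMSO and 3.56 with AVJ16, and the strongest AVJ16 site, at 346 nt after the stop codon, at 4.24 against 3.58 with DMSO. The other 8 shared peaks of SPRED2 differed by less than 0.5. RASA1, another RAS GTPase-activating protein, had 4 peaks in each list, all within 400 nt after the stop codon. From the stop codon onward they were at 3.05, 3.32, 4.37 and 4.38 with DMSO and at 3.28, 3.70, 4.00 and 3.68 with AVJ16. SPRY2, a Sprouty protein, had 1 shared peak of 3.09 with DMSO and 3.19 with AVJ16. SPRED1 had a DMSO peak of 4.19, without a partner, whose −log10 p of 3.89 is near the threshold, and SPRY4 had no peak.

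**Figure D3:**
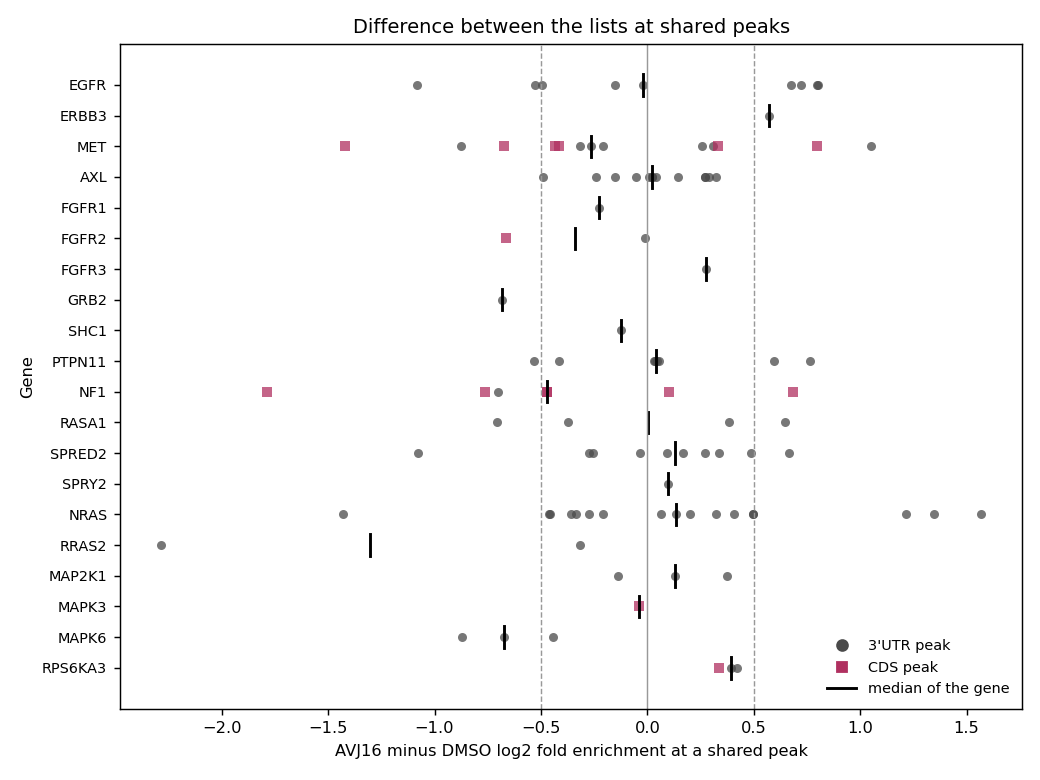
AVJ16 minus DMSO log2 fold enrichment (x axis) at each of the 101 shared DMSO peaks, by gene (y axis), for 3’UTR peaks (circles) and CDS peaks (squares), with the median of each gene as a vertical bar and dashed lines at a difference of 0.5 either way. AXL stays within the dashed lines, NRAS and MET lie beyond them on both sides, and the lowest point, -2.29, belongs to RRAS2.

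Of the RAS genes, NRAS and RRAS2 were bound and HRAS was not. NRAS, a small GTPase that passes the signal to RAF, had the most DMSO peaks of all members, 18, of which 17 lay in its 3’UTR of 3625 nt and 1 in the 5’UTR. AVJ16 gave 19 peaks, all in the 3’UTR. Most were in its proximal part, with 15 DMSO peaks between 144 and 1353 nt after the stop codon and 16 AVJ16 peaks between 68 and 1393 nt. Farther on, 2 DMSO and 3 AVJ16 peaks lay between 2682 and 2765 nt. NRAS peaks had a median enrichment of 4.21 (DMSO) and 4.26 (AVJ16) on the log2 scale. The strongest DMSO site lay 667 nt after the stop codon, at 5.04 with DMSO and 4.58 at the AVJ16 peak that overlapped it most. Another AVJ16 peak, of 5.23, overlapped part of the same DMSO peak. The strongest AVJ16 site lay at 795 nt, at 5.89 with AVJ16 and 4.32 with DMSO. Stretches of the strongest site of each list are printed above. The peaks at 435 and 835 nt were also higher in the AVJ16 list, at 4.73 against 3.39 and 4.62 against 3.40. At the distal site, 2742 nt after the stop codon, the direction was the opposite, with 4.77 in the DMSO list and 3.34 in the AVJ16 list. The other 13 shared NRAS peaks differed by less than 0.5.

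RRAS2, a RAS-related GTPase, held the most enriched DMSO peak of all members and the lowest difference. Its site 1107 nt after the stop codon was at 5.34 with DMSO (−log10 p of 10.1) and at 3.05 with AVJ16 (−log10 p of 4.34), a 4.87-fold difference in enrichment over peaks of nearly the same extent, 79 and 82 nt. A proximal site, 107 nt after the stop codon, was at 3.64 with DMSO and 3.32 with AVJ16. A pair of touching DMSO peaks of 3.73 and 3.98, centred 559 and 631 nt after the stop codon, had no AVJ16 partner.

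Of the 7 kinases and scaffolds from RAF to ERK, 4 were bound in each list, with 11 DMSO and 10 AVJ16 peaks. MAP2K1, the kinase MEK1, had 5 DMSO and 3 AVJ16 peaks. Its strongest peak, 811 nt after the stop codon and near the end of a 3’UTR of 929 nt, was at 4.49 with DMSO and 4.35 with AVJ16, and the peaks at 409 and 568 nt were at 3.28 and 3.22 with DMSO and 3.65 and 3.35 with AVJ16. A further DMSO peak of 3.62 was counted as coding from another transcript, since it lies 93 nt after the stop codon of the canonical one. MAPK6, the atypical kinase ERK3, had 3 shared 3’UTR peaks that were all lower in the AVJ16 list, at 3.73, 4.17 and 3.71 with DMSO and at 3.06, 3.30 and 3.26 with AVJ16. MAPK3, the kinase ERK1, had a shared coding peak of 3.12 with DMSO and 3.08 with AVJ16. For the RAF kinases the lists differed at the threshold: ARAF had a DMSO peak of 3.03 in its 3’UTR and BRAF an AVJ16 peak of 3.04 in its CDS. MAP2K2, the kinase MEK2, and the scaffold KSR1 had no peak.

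Of the phosphatases and RSK kinases, DUSP4 and DUSP6, which dephosphorylate MAP kinases, had no peak. RPS6KA3, the kinase RSK2, had 10 DMSO and 4 AVJ16 peaks, the widest gap in favour of DMSO among members. Its 7 DMSO peaks without a partner had log2 fold enrichments of 3.04 to 3.88 and included all 4 of those more than 4000 nt after the stop codon. The 3 shared peaks were each higher in the AVJ16 list, at 3.51 against 3.09, 4.42 against 4.02 and 3.38 against 3.05. RPS6KA1, the kinase RSK1, had a DMSO peak of 4.40 with a −log10 p of 4.51 and none with AVJ16.

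Over all members, the lists agreed in position about as much as the whole lists did. A DMSO peak was called shared when an AVJ16 peak overlapped it by at least 1 nt, and it was paired with the one that overlapped it most. This held for 101 of 142 DMSO peaks (71.1%, interval 63.2% to 77.9%) beside 66.2% of all DMSO peaks, and for 111 of 154 AVJ16 peaks (72.1%, interval 64.5% to 78.6%) beside 70.8% of all AVJ16 peaks. Peaks without a partner were weaker, with a median log2 fold enrichment of 3.40 for 41 DMSO peaks and 3.47 for 43 AVJ16 peaks, beside 3.75 and 3.76 for the shared ones. At the shared peaks the median AVJ16 minus DMSO difference was 0.02 (interval of the median -0.15 to 0.10, range -2.29 to 1.57), and over all 14759 shared peaks it was -0.06. The limit of 0.5 was taken from the study's methods, which applied it over common clusters that had also passed a test. Here it was put on separately called peaks without a test, so the counts are not of the study's differentially bound peaks. Beyond this limit, 17 member peaks were lower with AVJ16 (16.8%, beside 20.1% of all shared peaks) and 15 were higher (14.9%, beside 12.6%). These shares are near those of the whole lists.

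Differences beyond 0.5 ran both ways within genes. Of the 20 members with a shared peak, 7 had peaks beyond 0.5 in both directions, 4 had lower ones alone and 1, ERBB3, a higher one alone. The median difference of a member was above 0 in 10 and below 0 in 10. Some of these medians rest on 1 shared peak, as in ERBB3 and GRB2, and the sign of others depended on the pairing. The median of NRAS was 0.14, but -0.07 when pairing started from the AVJ16 peaks. That of EGFR was -0.02, but 0.35 with touching peaks joined. Differences beyond 1 were found at 6 lower peaks, 1 each in RRAS2, NF1, NRAS, MET, EGFR and SPRED2, and at 4 higher peaks, 3 in NRAS and 1 in MET. The 15 shared coding peaks of members had a median difference of -0.44 and the 86 shared 3’UTR peaks one of 0.03, beside -0.04 for all 2505 shared coding peaks and -0.07 for all 11720 shared 3’UTR peaks. MET and NF1 held 6 each of these 15 coding peaks, and 2 of those in MET share an AVJ16 partner, so the coding value rests mainly on these genes.

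The difference went from above to below 0 as the DMSO enrichment rose. The classes use the same DMSO value that is subtracted, which by itself favours lower differences in higher classes. It had a median of 0.34 at the 28 shared member peaks with a DMSO log2 fold enrichment of 3 to 3.5, of -0.01 at the 34 peaks of 3.5 to 4, and of -0.34 at the 39 peaks above 4. Over all shared peaks the medians of the same classes were 0.17, -0.07 and -0.37. Both lists end at 3.00, so a DMSO peak of 3.5 or less cannot appear as lower by more than 0.5. Picking a site as the strongest of a list favours a lower value in the other list in the same way. Of the sites printed above that were picked from the DMSO list, all but that of AXL were lower at the AVJ16 peak of largest overlap. All those picked from the AVJ16 list were higher with AVJ16. The part of this choice, of peak borders, of RNA level and of depth in the single differences was not tested.

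**Figure D4:**
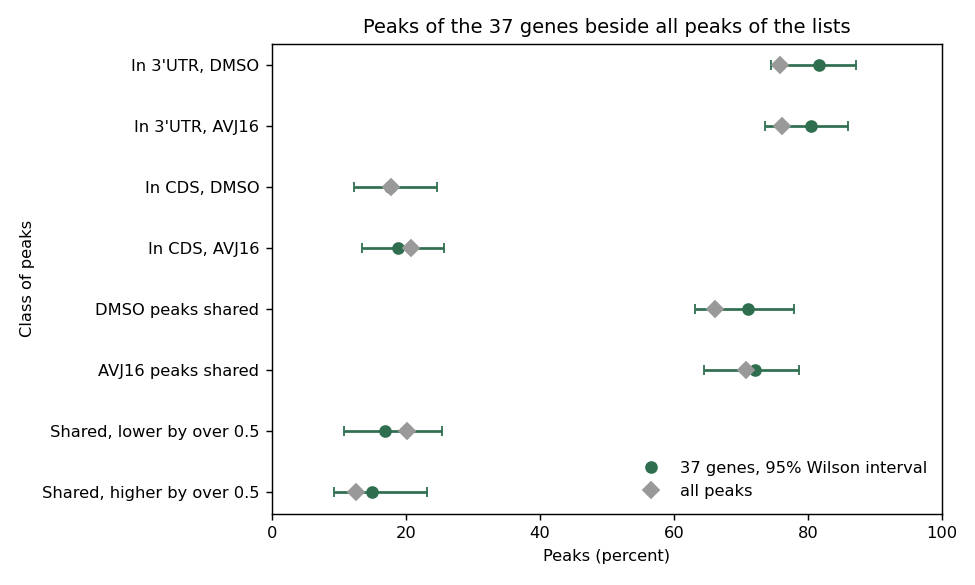
Shares of peaks (x axis, percent) of the 37 genes with 95% Wilson intervals (green circles) beside the shares over all peaks of the lists (grey diamonds), for each class on the y axis. The members' 3’UTR shares of 81.7% and 80.5% and their shared peaks of 71.1% and 72.1% have intervals that include the values of the whole lists.

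Short motifs were counted in windows of 100 nt centred on each peak, on the transcribed strand. CAUA, CAUC or CAUU was present in the windows of 93 of 116 DMSO 3’UTR peaks of members (80.2%, interval 72% to 86.4%) and of 92 of 124 AVJ16 ones (74.2%, interval 65.8% to 81.1%), beside 80.2% and 79% of all 3’UTR peaks. In windows of the same length from the members' 3’UTRs that hold no peak, 461 of 655 (70.4%, interval 66.8% to 73.8%) had a match. GGAC, the core of the consensus for m6A methylation, was present in 15.5% of DMSO and 21% of AVJ16 3’UTR peaks of members, beside 19.2% and 20.2% of all 3’UTR peaks and 18% of the windows without a peak. By gene, windows were counted over peaks of all regions. None of the 18 DMSO and 19 AVJ16 windows of NRAS held GGAC. In MET 6 of the 17 windows did in each list, but 8 of its 17 peaks were coding. NRAS was not alone in this, as GGAC was also absent from all 10 DMSO and 4 AVJ16 windows of RPS6KA3. The same held for the 5 DMSO and 3 AVJ16 windows of MAP2K1. Windows of neighbouring peaks can overlap. A match is a description of the letters and not of a site.

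The rest of the pathway was represented by a list of 76 further genes, of which 30 held a DMSO peak and 31 an AVJ16 peak. Among the 37 members 26 and 24 did, and of all protein-coding genes 25.8% and 23.2%. Both lists held a peak in 25, the DMSO list alone in 5, the AVJ16 list alone in 6, and 40 genes had none. Of all genes bound with DMSO, 20.9% had no AVJ16 peak, and of those bound with AVJ16, 12.1% had no DMSO peak. Of 119 shared DMSO peaks, 26 were lower and 19 higher with AVJ16 by more than 0.5, beside 20.1% and 12.6% of all shared peaks. Genes of this list with 10 or more peaks in a list included CBL (a ubiquitin ligase of receptors), the adaptors GRB10 and CRKL, and the receptors EPHA4 and DDR2. CBL held 22 DMSO and 25 AVJ16 peaks and had a median difference of 0.11 over 19 shared peaks. Of the ligands of EGFR, TGFA had 2 peaks and HBEGF 3 in the AVJ16 list, up to a log2 fold enrichment of 3.66 and 4.96, and none in the DMSO list. The other EGFR ligands of this list had no peak with either treatment.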

How the data were processed

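IGF2BP1 eCLIP libraries of H1299 cells were grouped by the labelled treatment, DMSO or AVJ16. Reads were trimmed (cutadapt), cleared of repeats, mapped (STAR) and freed of PCR duplicates by the authors before peak calling (CLIPper). The −log10 p and the log2 fold enrichment of IP over paired SMInput are deposited as the authors computed them, separately for each treatment and with both replicates in 1 list. Depth is unknown.

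Peaks were assigned on the strand to GENCODE release 44 genes (hg38 in the processing notes) and to the first region they touched, coding sequence (CDS) first, then 3’UTR, then 5’UTR, then other exons, then introns up to 500 nt from an exon (proximal) and beyond (distal). For each DMSO peak the AVJ16 peak of largest overlap was its partner. Positions refer to the canonical transcript and a peak's centre. Wilson intervals cover counting error only. Members and lists were chosen with earlier results of these data known. Genes with 5 or more peaks in a list, the largest differences and genes in 1 list were described in depth. Enrichment and p thresholds, joining of peaks, regions, overlap, pairing, limit and centring were varied. Python 3.11.15, numpy 2.4.6, scipy 1.17.1 and matplotlib 3.10.9 were used, and the scripts were tested on simulated data. The RNA-seq and proteomics data were not analysed. A gene of the further pathway list is not reported here by name.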

Additional observations from a re-analysis of the deposited data

How the results depend on the processing

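Of 61 recomputed values, 46 stayed close to the reported one (counts within 1.5 times, shares and medians within their interval), and the rest were these. With the log2 enrichment limit raised to 4, 15 members with 44 peaks were bound with DMSO and 11 with 40 peaks with AVJ16, the 3’UTR held 87.5% of the AVJ16 peaks, 1 member had a peak with AVJ16 alone, 52.3% of the DMSO peaks were shared, and 1 shared peak was lower and 3 were higher by more than 0.5. A −log10 p of at least 5 left 1 member with a peak in the AVJ16 list alone. With an overlap of 50% of both peaks, 60.6% of the DMSO peaks were shared. The median difference, reported as 0.02, turned to -0.0017 with that overlap and to -0.0124 when pairing started from the AVJ16 peaks, so its sign depended on the pairing. With a limit of 1 in place of 0.5, 6 shared peaks were lower and 4 higher. The lists combine both replicates, so leaving out a replicate could not be run. No paired analysis was possible because the lists hold no value per replicate.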
